A study of Mus musculus with 20 samples.

Results

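The insulin-like growth factor (IGF) genes described here were the 2 ligands *Igf1* and *Igf2*, the 2 receptors *Igf1r* and *Igf2r*, and the 6 binding protein genes *Igfbp2* to *Igfbp7*, which were 10 of the 54532 genes in the deposited count table. They were chosen by name, and all 10 passed the filter on low counts. RNA was sequenced from temporomandibular joint (TMJ) condylar heads of mice, collected with a portion of the subchondral bone, to ask what changes after loss of LOXL2, an enzyme that cross-links collagen. Every animal was Acan-Cre;*Loxl2* fl/fl, with a CreERT2 recombinase driven by the aggrecan promoter and thus active in aggrecan-expressing cells. The 8 control animals (4 males and 4 females) received vehicle, and the 12 animals labelled knockout (6 males and 6 females) received tamoxifen at 75 mg per kg on 5 consecutive days from 6 months of age and then 1 injection per month, with collection after 4 months. Since only 1 group received tamoxifen, the drug and the deletion cannot be told apart.

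IGF1 and IGF2 are secreted hormones that act through IGF1R, a receptor tyrosine kinase that signals through insulin receptor substrate proteins, PI3K and AKT. IGF2R, also the mannose 6-phosphate receptor, takes up IGF2 and directs it to lysosomes. The binding proteins hold the ligands outside the cell and release them when they are cleaved by proteases; in cartilage IGF1 is known to raise proteoglycan synthesis, and bone matrix stores IGFs together with IGFBP5.

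The libraries held 14177222 to 23795467 counts in control and 11153820 to 27045668 in the group labelled knockout, where 3 counts corresponded to 0.0964 to 0.246 CPM, the counts scaled to a common library size. *Loxl2* itself did not fall with the knockout label, at 64.5 ± 30.9 CPM (n = 8, SD) in control and 101 ± 26.9 CPM (n = 12, SD), a fitted log2 fold change of 0.64 (edgeR adjusted p = 0.101, SE 0.28). Its log2 CPM was higher in the libraries labelled knockout by the exact permutation test (p = 0.0271). Its level exceeded the control median in 11 of 12 libraries labelled knockout and every control library in 7. Its count covers the whole gene and does not separate the floxed part, so each direction below is that of the libraries as labelled. The study reported less LOXL2 by immunohistochemistry in its knockout mice, a measure of protein and not of RNA in mixed tissue. Over all genes tested with edgeR, 1918 were higher and 1755 lower, and scaling by library totals alone turned this split into 2188 and 849 and moved the median log2 fold change of all genes from −0.02 to 0.12. The samples were mixed tissue: 8 skeletal muscle markers summed to 27811 to 154420 CPM, the chondrocyte list of *Acan*, *Col2a1* and 8 other genes to 67.5 to 6562 CPM, and 2 of its members, *Matn1* and *Matn3*, were too low to test. Of 13 marker lists compared by an exact permutation test with adjustment over the lists, those of osteoclasts (adjusted p = 0.00103), macrophages (0.00103), mast cells (0.0131) and osteoblasts with osteocytes (0.0311) were higher in the libraries labelled knockout, and the other 9 did not pass. Mitochondrial transcripts made up 17.8 ± 2.78% of counts in control and 13.6 ± 3.03% in the libraries labelled knockout (exact permutation p = 0.0053), and their part in the results was not tested. One library, knockout replicate 9, stood apart with salivary gland transcripts, which summed to 3038 CPM against 103 CPM or less in control. No IGF call was lost without that library except that of *Igfbp3*, which was lost without each of 12 libraries.

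Sequences before a start site of each of the 4 genes that passed the test are shown so that the reader can see what kind of promoter lies there. They were taken from RefSeq (GRCm38.p6), run 5′ to 3′ on the gene's strand from 250 bases before to 50 bases after the start, and carry in capitals each match to a TATA box (TATANA) or a GC box (GGGCGG) on either strand. For *Igf2*, which has 4 annotated starts, the most downstream is shown. The only *Igf1* window has its start at 87861111, inside the gene, which begins at 87858265. The sequence at the annotated beginning of *Igf1* is therefore not shown.
*Igf1*, chr10:87860861-87861160, plus strand: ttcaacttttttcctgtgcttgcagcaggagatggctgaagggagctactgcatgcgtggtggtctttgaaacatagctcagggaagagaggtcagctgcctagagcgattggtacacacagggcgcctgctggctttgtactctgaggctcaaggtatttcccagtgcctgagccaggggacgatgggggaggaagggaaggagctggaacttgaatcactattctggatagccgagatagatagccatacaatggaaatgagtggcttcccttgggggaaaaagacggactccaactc
*Igf2*, chr7:142657447-142657746, minus strand: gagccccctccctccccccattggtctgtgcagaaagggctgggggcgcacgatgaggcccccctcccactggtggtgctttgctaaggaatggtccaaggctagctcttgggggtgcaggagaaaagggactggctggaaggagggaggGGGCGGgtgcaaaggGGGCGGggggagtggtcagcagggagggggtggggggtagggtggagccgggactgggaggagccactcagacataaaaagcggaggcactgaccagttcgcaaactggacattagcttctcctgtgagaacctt
*Igfbp3*, chr11:7213874-7214173, minus strand: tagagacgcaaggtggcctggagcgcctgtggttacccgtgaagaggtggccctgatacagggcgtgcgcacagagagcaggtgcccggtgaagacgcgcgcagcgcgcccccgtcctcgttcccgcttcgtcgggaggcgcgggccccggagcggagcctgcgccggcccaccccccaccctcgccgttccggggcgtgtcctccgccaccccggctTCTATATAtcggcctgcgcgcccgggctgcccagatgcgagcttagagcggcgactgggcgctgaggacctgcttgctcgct
*Igfbp7*, chr5:77407996-77408295, minus strand: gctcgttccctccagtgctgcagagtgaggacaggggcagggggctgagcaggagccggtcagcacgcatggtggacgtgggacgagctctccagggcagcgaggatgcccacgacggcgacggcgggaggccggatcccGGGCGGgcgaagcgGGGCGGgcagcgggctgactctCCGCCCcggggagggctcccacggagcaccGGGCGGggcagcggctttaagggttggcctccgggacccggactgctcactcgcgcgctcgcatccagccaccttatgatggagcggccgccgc
The *Igfbp3* window held 2 overlapping TATA matches and 37 CpG dinucleotides at a GC content of 71.7%. The *Igfbp7* window held 4 GC boxes and no TATA match, with 33 CpG, and the *Igf2* window shown 2 GC boxes with 7 CpG. The *Igf2* windows not shown held 2, 14 and 24 CpG with 0, 0 and 1 GC boxes, and counts for the whole gene do not show which start was used. The *Igf1* window matched neither motif and had 6 CpG. Over 32851 RefSeq windows of the same length, 24.7% matched the TATA motif and 35.7% the GC box, with a median of 7 CpG. Windows of genes that did not pass held such matches too, with 1 TATA match for *Igfbp4* and 2 for *Igfbp6*, and with 2 GC boxes for *Igf1r*, 3 for *Igf2r* and 3 in the first of 2 windows for *Igfbp2*. A match describes the letters and is not a measured binding site.

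In the libraries labelled knockout, *Igf1* and *Igfbp7* were higher and *Igf2* and *Igfbp3* were lower, so 4 of 10 genes passed an adjusted p of 0.05 in edgeR against 23.0% of all 15984 genes tested. With the Wald test of DESeq2, 6 of the 10 passed (3 higher and 3 lower) against 22.5% of all genes, the additional 2 being *Igfbp4* and *Igfbp2*. The median absolute log2 fold change was 0.68 over the 10 genes and 0.27 over all genes, and the median signed change was 0.10 against −0.02. In bulk tissue, fewer cells of a type and less RNA per cell cannot be told apart.

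**Figure D1:**
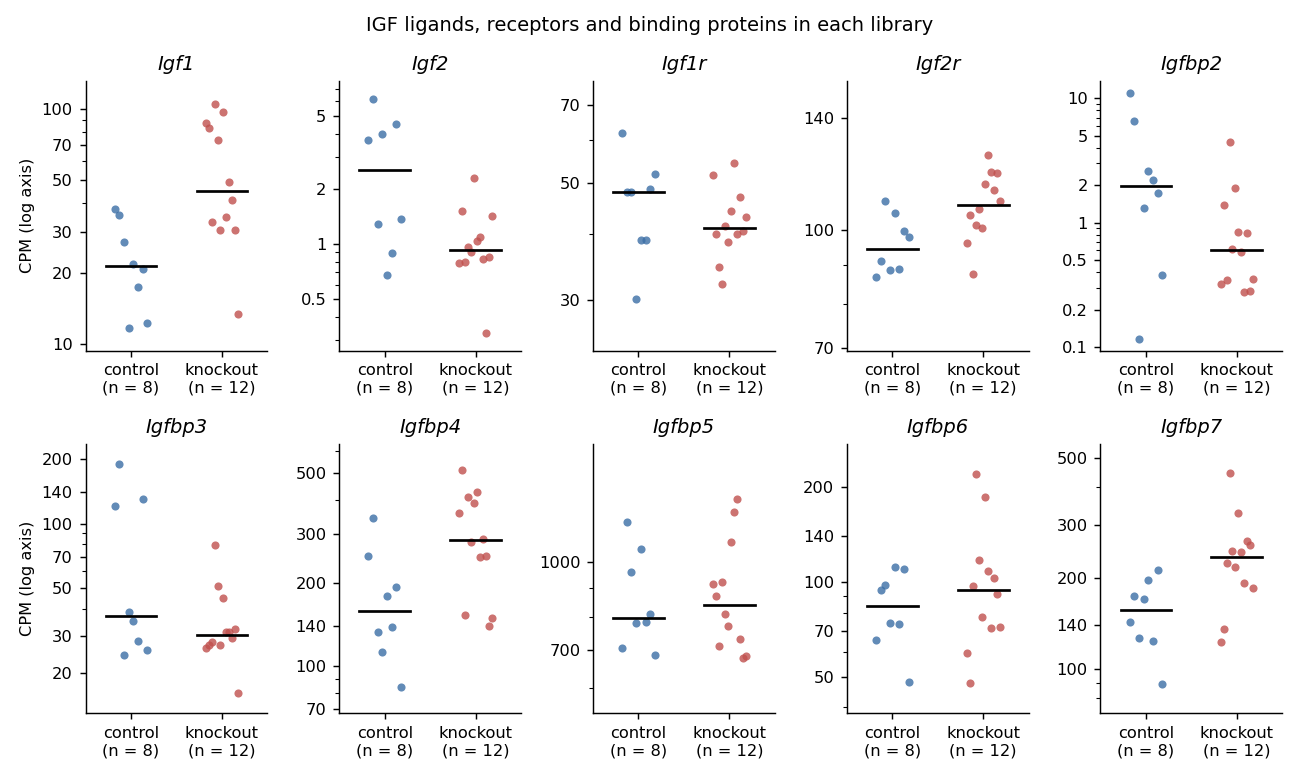
CPM of each IGF gene in the 8 control libraries (blue) and the 12 libraries labelled knockout (red), 1 point per library on a log axis that differs between panels, with a black bar at the group median. *Igf1* and *Igfbp7* points sit higher on the right and *Igf2* points lower, while 3 control points of *Igfbp3* stand above the rest.

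**Figure D2:**
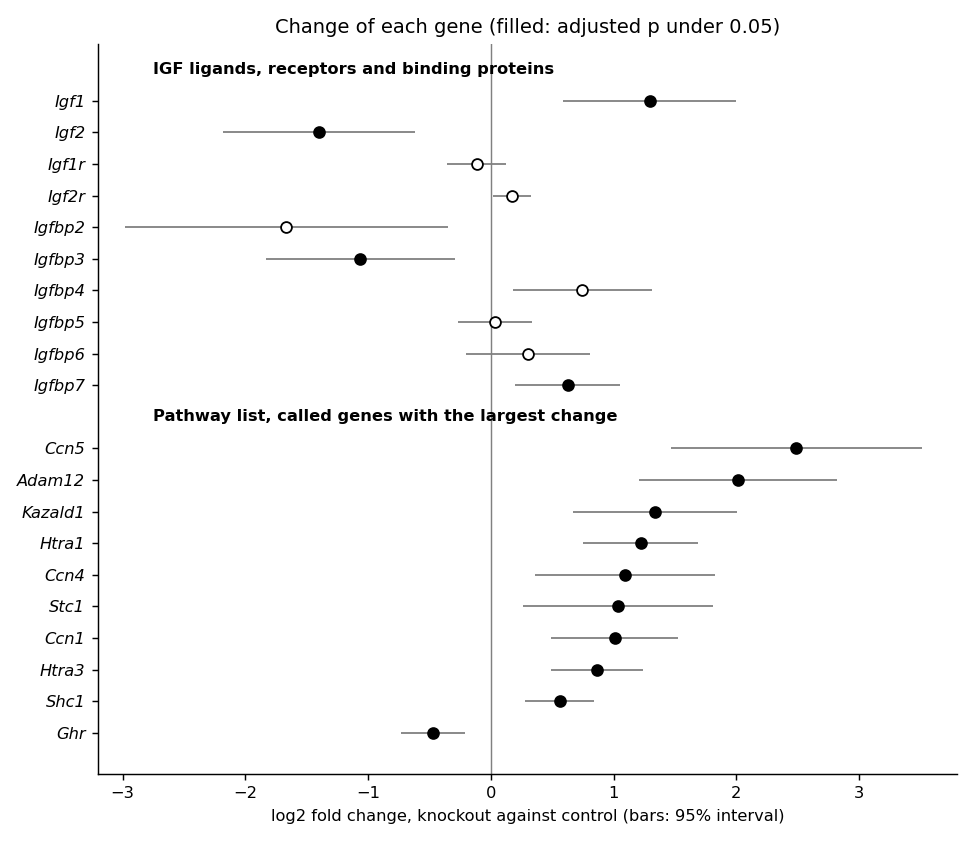
Log2 fold change of the 10 IGF genes and of 10 pathway genes, libraries labelled knockout against control, from edgeR (points) with 95% intervals (bars), filled where the adjusted p was under 0.05. The IGF genes spread to both sides of 0, from −1.67 for *Igfbp2* to 1.29 for *Igf1*, and 9 of the 10 pathway genes, which were picked as the called genes with the largest absolute change, lie to the right. Over the whole list of 46 tested genes 11 were higher and 5 lower.

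*Igf1* (ENSMUSG00000020053, chromosome 10, 87858265 to 87937042, plus strand) encodes the main growth hormone-induced ligand, which is also made locally in bone and connective tissue. Its level was 11.7 CPM in the lowest, 21.4 in the median and 37.7 in the highest control library, and 13.4, 44.9 and 105 CPM in the libraries labelled knockout. Of the 12 libraries labelled knockout, 11 exceeded the median of control and 7 exceeded every control library, whereas the other 5, with knockout replicate 12 lowest, lay within the control range. The means were 23.0 ± 9.73 CPM (n = 8, SD) and 56.5 ± 31.0 CPM (n = 12, SD), a fitted log2 fold change of 1.29 (edgeR adjusted p = 0.0104, SE 0.34). The call held in all 20 fits that left out 1 library, with values from 1.17 to 1.43. It held in 10 of 14 other settings of processing, test, libraries or covariate.

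The macrophage list was higher too in the libraries labelled knockout, as were the lists of osteoclasts, mast cells and osteoblasts with osteocytes. The 6 macrophage markers summed to 36.8 to 179 CPM in control and 119 to 469 CPM in the libraries labelled knockout. *Csf1r*, *Cd68*, *Adgre1*, *Mrc1* and *C1qa* were called higher and *Cd163* was not. Group membership held 61.3% of the variance of this list. With the list as a covariate the *Igf1* estimate was −0.27 (edgeR adjusted p = 0.966, SE 0.45), in a fit that called 0 of 15984 genes and had 840 at an unadjusted p under 0.05. With the osteoclast list as covariate, which likewise left 0 calls, the *Igf1* estimate was 0.99 (edgeR adjusted p = 0.626). *Igf1* was also not called with the osteoblast and osteocyte list (474 genes called) or the fibroblast and tendon list (1593) as covariate. The macrophage list and the fibroblast and tendon list were chosen as covariates after these data were seen. The group and these cell type lists cannot be told apart by such a fit.

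*Igf2* (ENSMUSG00000048583, chromosome 7, 142650766 to 142666816, minus strand), the imprinted fetal growth factor gene that stays low in most adult tissue, went the other way. It was scarce, with 10 to 113 counts in control and 4 to 60 counts in the libraries labelled knockout. The control libraries ran from 0.681 over a median of 2.55 to 6.19 CPM, and the libraries labelled knockout from 0.328 over 0.930 to 2.29 CPM. All 12 libraries labelled knockout lay below the control median. The control libraries fell into 4 at 3.72 to 6.19 CPM (replicates 1, 2, 4 and 7), above every library labelled knockout, and 4 at 0.681 to 1.38 CPM that overlapped them. The means of 2.83 ± 2.04 CPM (n = 8, SD) and 1.07 ± 0.490 CPM (n = 12, SD) differed, with a fitted log2 fold change of −1.40 (edgeR adjusted p = 0.0121, SE 0.38), and the call held in all 20 fits that left out 1 library. Under other settings this call held in 10 of 14. The antisense transcript *Igf2os* overlaps the gene and had 0 to 19 counts, and since the use of strand is not given in the sources used here, its reads and those of *Igf2* cannot be told apart. *Gm49394*, annotated as protein-coding on the same strand, overlaps *Igf2* over 16048 bases and had 0 counts in every library. How reads shared by 2 genes were treated is not given, so whether such reads are missing from the *Igf2* counts is not known. *H19*, the imprinted neighbour 72622 bases away, was at 579 ± 223 CPM (n = 8, SD) and 443 ± 150 CPM (n = 12, SD), with a log2 difference of −0.39 that did not pass (edgeR adjusted p = 0.221).

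Neither receptor gene passed the test. *Igf1r* (ENSMUSG00000005533, chromosome 7, 67952827 to 68233668, plus strand), the signalling receptor, lay at 30.2 to 62.1 CPM in control and 32.3 to 54.4 CPM in those labelled knockout. The log2 difference was −0.12 (95% interval −0.35 to 0.12, edgeR adjusted p = 0.486). The groups overlapped almost completely, and with library totals alone the sign turned (0.02). *Igf2r* (ENSMUSG00000023830, chromosome 17, 12682406 to 12769664, minus strand), the clearance receptor, varied least among the 10 genes, with coefficients of variation of 8.74% in control and 9.97% in the group labelled knockout. Its means were 95.8 ± 8.38 CPM (n = 8, SD) and 108 ± 10.8 CPM (n = 12, SD), and 11 of 12 libraries labelled knockout exceeded the control median. The log2 difference of 0.17 (SE 0.07, 95% interval 0.02 to 0.33) had an edgeR adjusted p of 0.0905, which became 0.0469 without knockout replicate 3 and 0.0334 with library totals alone. The long antisense RNA *Airn* overlaps *Igf2r* and had 76 to 289 counts against 1278 to 3251 for *Igf2r*.

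Among the binding proteins, *Igfbp7* was higher. *Igfbp7* (ENSMUSG00000036256, chromosome 5, 77349240 to 77408041, minus strand) encodes a secreted matrix protein that binds IGFs only weakly. Control libraries ran from 89.0 over a median of 157 to 213 CPM and libraries labelled knockout from 122 over 235 to 446 CPM. Of the latter, 10 of 12 lay above the control median and 8 above every control library. The means were 155 ± 41.5 CPM (n = 8, SD) and 239 ± 86.4 CPM (n = 12, SD), a fitted log2 fold change of 0.63 (edgeR adjusted p = 0.0329, SE 0.21). The call held in 15 of 20 fits that left out 1 library and was lost without control replicate 3, 6 or 8 or knockout replicate 4 or 7, where the estimate stayed between 0.51 and 0.71 over all such fits and the adjusted p reached 0.0702. Under other settings this call held in 7 of 14.

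*Igfbp3* (ENSMUSG00000020427, chromosome 11, 7206086 to 7213923, minus strand), which encodes the main carrier of IGFs in blood, was lower. Its control libraries ran from 24.3 over a median of 36.9 to 189 CPM, and those labelled knockout from 16.2 over 30.2 to 79.7 CPM. Control replicates 1, 2 and 7 stood at 120, 189 and 130 CPM, above every library labelled knockout, while the other 5 control libraries lay at 24.3 to 38.6 CPM, within the range of the libraries labelled knockout. The means of 73.8 ± 63.3 CPM (n = 8, SD) and 35.3 ± 16.6 CPM (n = 12, SD) gave a fitted log2 fold change of −1.06 (edgeR adjusted p = 0.0429, SE 0.37). This call held in only 8 of 20 fits that left out 1 library and in 6 of 14 other settings. It was lost without control replicate 1, 2 or 7 and without knockout replicate 1, 2, 3, 6, 8, 9, 10, 11 or 12, and without control replicate 2 the estimate was −0.69 (edgeR adjusted p = 0.154).

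*Igfbp2* (ENSMUSG00000039323, chromosome 1, 72824503 to 72852474, plus strand), a carrier with a cell-attachment motif, was scarce and varied most. It ran from 0.117 over a median of 1.98 to 11.04 CPM in control and from 0.276 over 0.602 to 4.47 CPM in the libraries labelled knockout. Control replicates 1 and 2 were high, at 11.04 and 6.63 CPM, while control replicate 3 held only 2 counts. The log2 difference of −1.67 (SE 0.63, 95% interval −2.98 to −0.35) did not pass in edgeR (adjusted p = 0.0611) and passed in DESeq2 (adjusted p = 0.0294). It passed in edgeR without control replicate 3 or knockout replicate 4, and without control replicate 1 it was −1.06 (edgeR adjusted p = 0.215).

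*Igfbp4* (ENSMUSG00000017493, chromosome 11, 99041244 to 99054392, plus strand), which encodes an inhibitory binding protein cleaved by the protease PAPP-A, lay just outside the threshold. Control libraries ran from 84.3 over a median of 159 to 344 CPM and libraries labelled knockout from 140 over 286 to 511 CPM. In the latter group 9 of 12 libraries exceeded the control median and 5 exceeded every control library. The log2 difference was 0.74 (SE 0.27, 95% interval 0.18 to 1.31, edgeR adjusted p = 0.0530), and DESeq2 gave an adjusted p of 0.0251. In edgeR it passed in 5 of 20 fits, those without control replicate 1 or 2 or knockout replicate 3, 11 or 12.

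*Igfbp5* (ENSMUSG00000026185, chromosome 1, 72857932 to 72874884, minus strand), the binding protein laid down in bone matrix, overlapped between the groups over most of its range. It ran from 686 over a median of 796 to 1176 CPM in control and from 676 over 840 to 1292 CPM in those labelled knockout. The log2 difference was 0.03 (95% interval −0.27 to 0.33, edgeR adjusted p = 0.889). The gene lies 5457 bases from *Igfbp2* on the other strand, and the pair differed in spread, with coefficients of variation in control of 20.3% for *Igfbp5* and 115% for *Igfbp2*. *Igfbp6* (ENSMUSG00000023046, chromosome 15, 102144362 to 102149511, plus strand), which binds IGF2 more tightly than IGF1, ran from 48.2 over 84.1 to 111 CPM in control and from 47.8 over 94.1 to 220 CPM in the libraries labelled knockout. Its log2 difference was 0.30 (95% interval −0.20 to 0.81, edgeR adjusted p = 0.381). Knockout replicates 4 and 7 were its highest libraries, at 220 and 186 CPM, and were also the highest for *Igfbp7*, at 446 and 329 CPM. *Igfbp1*, the liver-made member of the family, had at most 3 counts in any control library and 0 in those labelled knockout and was not tested.

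Levels can be compared between genes only per length, and for this CPM were divided by the kilobases of the longest annotated transcript. In control the order of mean levels was *Igfbp5* (145 CPM per kb), *Igfbp7* (129), *Igfbp6* (75.9), *Igfbp4* (46.8), *Igfbp3* (30.5), *Igf2r* (10.8), *Igf1r* (4.02), *Igf1* (3.27), *Igfbp2* (2.49) and *Igf2* (0.600). Some neighbours overlapped: *Igfbp5* exceeded *Igfbp7* in 5 of 8 control libraries, *Igfbp6* exceeded *Igfbp4* in 6, and *Igf1r* exceeded *Igf1* in 7. In the libraries labelled knockout *Igfbp7* came first at 199 CPM per kb and exceeded *Igfbp5*, at 148, in 9 of 12 libraries. There *Igf1*, at 8.02 CPM per kb, exceeded *Igf1r*, at 3.71, in 11 of 12 libraries. *Igfbp3* came next to *Igf2r*, at 14.6 and 12.2 CPM per kb, and exceeded it in 4 of 12 libraries, with the order of these means turned when the union of all exons was used as length.

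The composition of the binding protein messenger RNA pool, as the share of each gene in the summed CPM per kb of the 6 binding proteins, followed these levels. *Igfbp5* made up 34.5 ± 5.76% (n = 8, SD) of the pool in control and 28.5 ± 6.59% (n = 12, SD) in the libraries labelled knockout. *Igfbp7* made up 30.1 ± 4.25% and 36.8 ± 7.02%. *Igfbp3* made up 6.52 ± 4.42% and 2.65 ± 0.619%, with the control libraries split as above. The largest share was that of *Igfbp5* in 5 of 8 control libraries and that of *Igfbp7* in 9 of 12 libraries labelled knockout. These shares were described without a test.

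**Figure D3:**
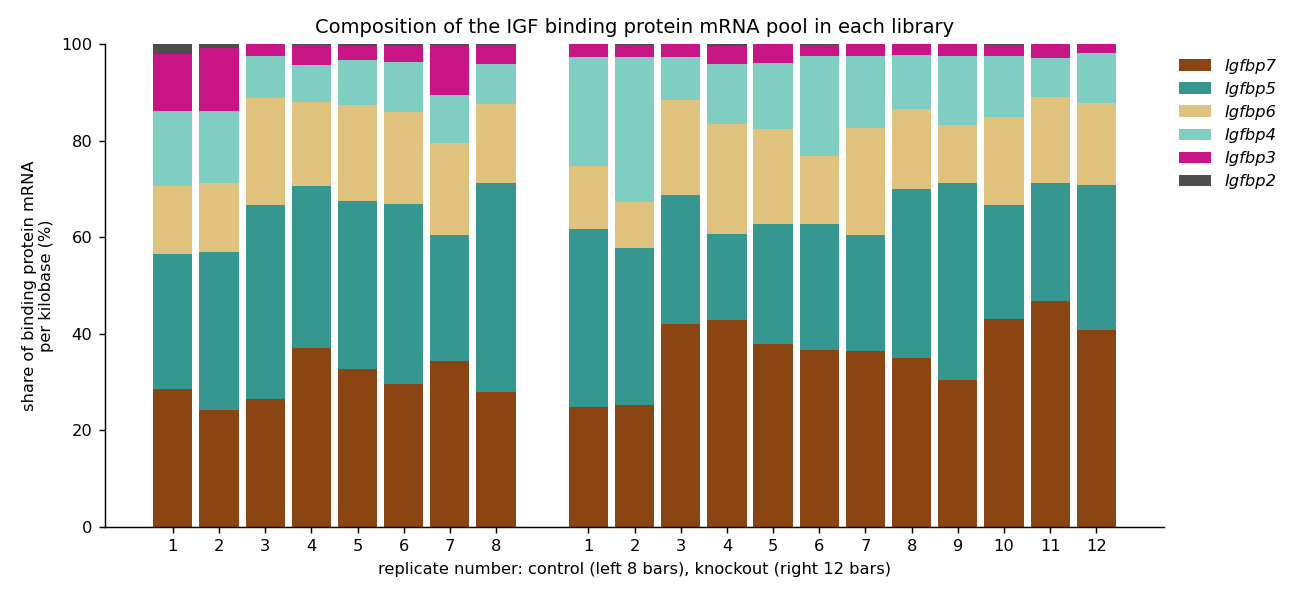
Share of each binding protein gene in the summed CPM per kb of the 6 genes (vertical axis, percent), 1 bar per library, with 8 control bars on the left and 12 bars of the libraries labelled knockout on the right. The *Igfbp3* segment is widest in control replicates 1, 2 and 7, and the *Igfbp7* segment is the largest in 9 of 12 bars on the right.

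Summed binding protein messenger RNA per kb exceeded that of the 2 ligands by a mean of 120 ± 30.7 times (n = 8, SD) in control and 81.3 ± 39.4 times (n = 12, SD) in the libraries labelled knockout. The lowest ratios were 32.7 in knockout replicate 1 and 37.0 in knockout replicate 2, and the highest was 173 in knockout replicate 12, the library with the lowest *Igf1* of its group. *Igf1* made up 84.4 ± 10.2% (n = 8, SD) of ligand messenger RNA per kb in control and 96.0 ± 3.91% (n = 12, SD) in the libraries labelled knockout. The ratio of *Igf2r* to *Igf1r* per kb was 2.79 ± 0.622 (n = 8, SD) and 3.32 ± 0.426 (n = 12, SD). These ratios depend on the length used, and the share of *Igf1* depends also on the uncertain *Igf2* counts. With the union of all exons, mean binding protein to ligand ratios were 160 in control and 110 in the libraries labelled knockout. The *Igf2r* to *Igf1r* ratio was then 3.92 and 4.67.

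How the genes varied together was described by Pearson's r of log2 CPM over the 20 libraries after the mean of each group was removed. The libraries share depth and tissue composition, so no p is given. *Igfbp6* and *Igfbp7* followed each other most closely (r = 0.91; 0.81 within the 8 control libraries and 0.95 within the 12 labelled knockout). *Igf1* and *Igfbp4* came next (r = 0.79; 0.86 and 0.77). *Igfbp2*, *Igfbp3* and *Igfbp4* had pairwise values of 0.64 to 0.70. *Igf2* and *Igfbp3* had r = 0.54 over all libraries, 0.82 within control and −0.17 within the libraries labelled knockout.

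**Figure D4:**
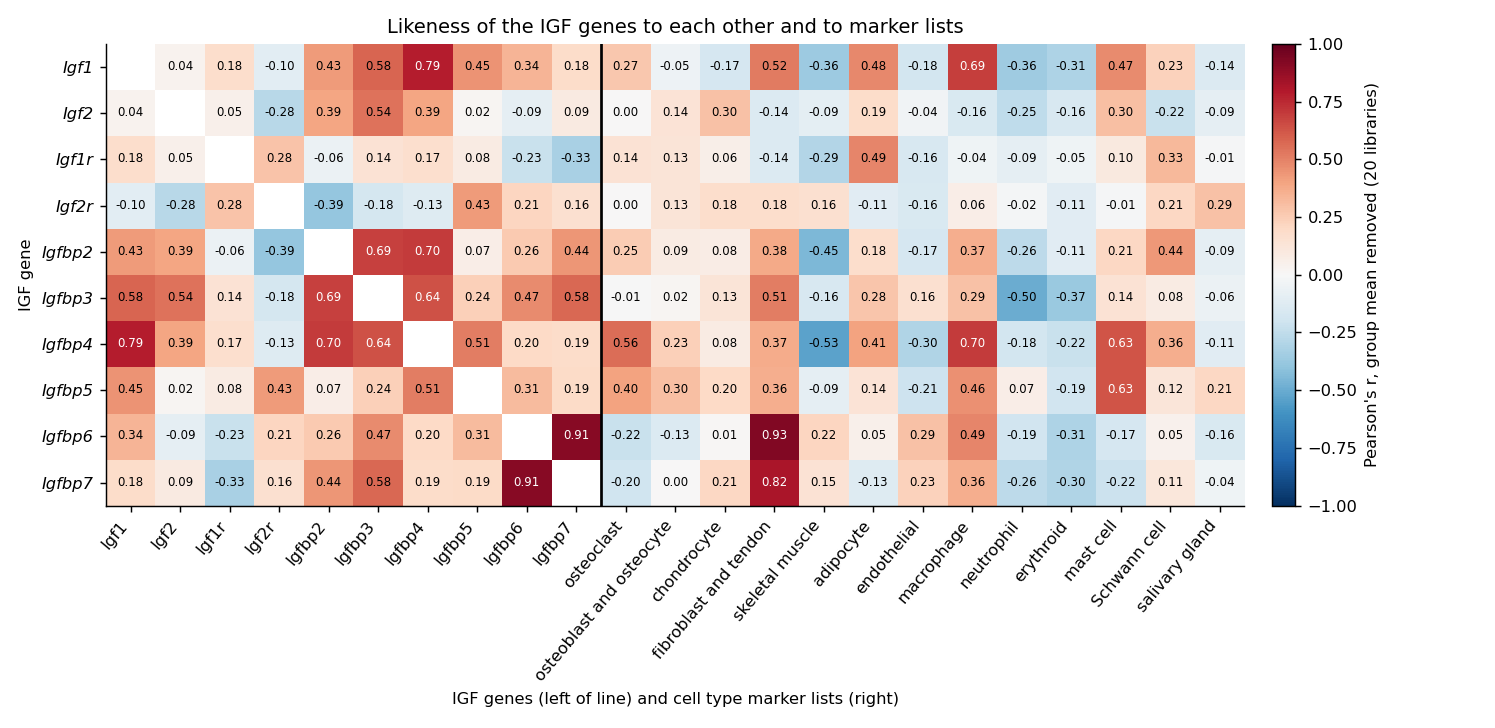
Pearson's r of log2 CPM, with the mean of each group removed, between each IGF gene (rows) and the other IGF genes and 13 cell type marker lists (columns) over 20 libraries, from −1 (blue) to 1 (red). The darkest red cells join *Igfbp6* and *Igfbp7* to each other (0.91) and to the fibroblast and tendon list (0.93 and 0.82), and *Igf1* to *Igfbp4* (0.79).

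Against the marker lists, *Igfbp6* and *Igfbp7* had their highest values with the fibroblast and tendon list of 8 genes, among them *Pdgfra*, *Scx* and *Dpt* (r = 0.93 and 0.82). *Igfbp4* and *Igf1* had theirs with the macrophage list (r = 0.70 and 0.69). Within the 12 libraries labelled knockout the same lists were highest, but within the 8 control libraries this held only for *Igfbp6* (0.88). Within control *Igfbp7* was highest with the osteoblast and osteocyte list (0.915, against 0.77 for fibroblast and tendon), which had −0.56 in the libraries labelled knockout. *Igf1* and *Igfbp4* were highest within control with the mast cell list (0.82 and 0.73), against 0.60 and 0.55 for macrophages. The fibroblast and tendon genes summed to 414 to 2251 CPM in control and 1056 to 4829 CPM in the libraries labelled knockout, with *Pdgfra* and *Tnmd* called higher and 6 genes not. The score of that list differed by 0.53 (exact permutation p = 0.0330, adjusted over 13 lists 0.0846). This list and the macrophage list were chosen as covariates after these data were seen, and such fits cannot tell the group and the list apart. With the fibroblast and tendon list as covariate the *Igfbp7* estimate was 0.20 (edgeR adjusted p = 0.397) and that of *Igfbp6* was −0.31 (edgeR adjusted p = 0.0830). That of *Igfbp3* was −1.59 (edgeR adjusted p = 0.00985). With the macrophage list as covariate the *Igfbp4* estimate was −0.43 (edgeR adjusted p = 0.924).

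**Figure D5:**
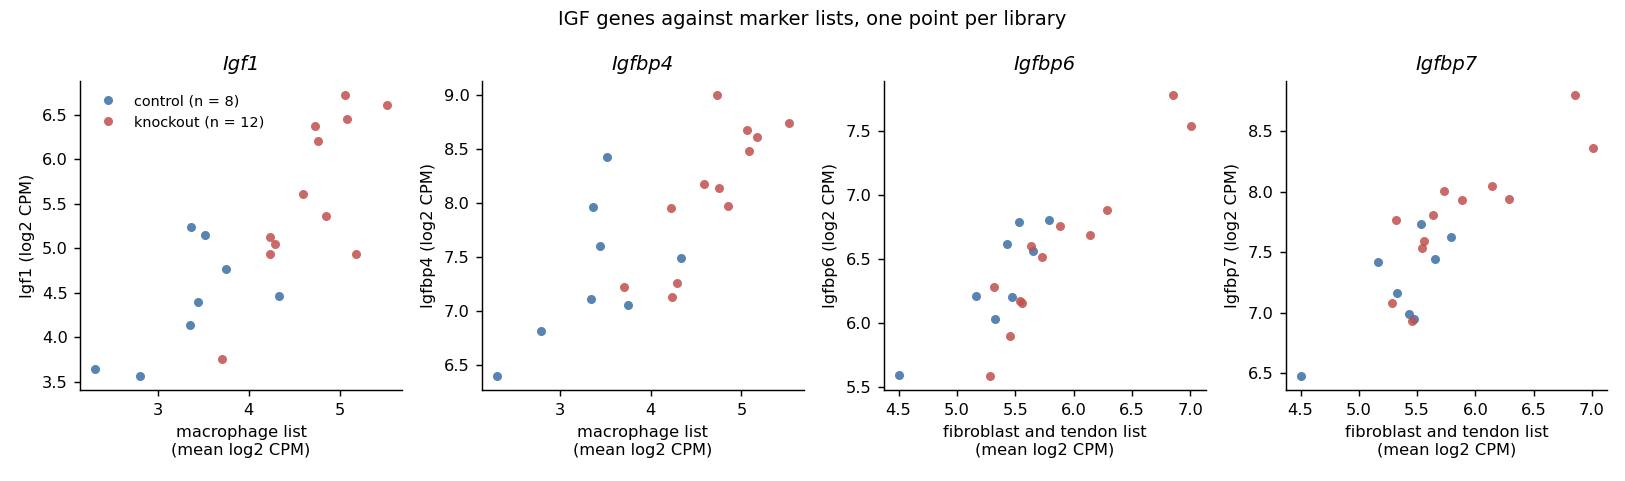
Log2 CPM of *Igf1* and *Igfbp4* against the mean log2 CPM of the macrophage list, and of *Igfbp6* and *Igfbp7* against that of the fibroblast and tendon list, 1 point per library, control in blue (n = 8) and libraries labelled knockout in red (n = 12). In the macrophage panels most red points lie to the right of the blue ones, and in the other 2 panels the libraries of both groups lie along a common band, with knockout replicates 4 and 7 at its upper end.

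For each gene the 2 protein-coding genes with the most similar pattern were taken from the 10756 tested with a mean of at least 5 CPM. *Pthlh*, the gene of parathyroid hormone-related protein, ranked first for both *Igf1* (r = 0.87) and *Igfbp4* (r = 0.90), followed by *Erlin1* (0.82) and *Rab32* (0.89). *Igf2* was most like *Wfikkn2*, a muscle-expressed inhibitor of myostatin (r = 0.86), and *Snapc4* (0.74). *Igfbp3* was most like *Sfrp2*, a secreted Wnt modulator (r = 0.84), and *Rarres2* (0.76). *Igfbp2* was nearest to *Igsf8* (0.85) and *Msx1* (0.82), and *Igfbp5* to *Fchsd1* (0.77) and *Nubp1* (0.75). For *Igfbp6* the nearest was *Tgfbi*, a collagen-binding matrix protein (0.92), before *Igfbp7*. For *Igfbp7* it was *Sod3*, the extracellular superoxide dismutase (0.91), before *Igfbp6*. *Igf1r* was most like *Wdfy3* (0.88) and *Fam168a* (0.84), while *Igf2r* had no gene above 0.65 (*Trim68* 0.65, *Nr6a1* 0.64).

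Around these genes, a list of 53 genes that process, resemble or transmit IGFs had 46 tested, of which 11 were higher, 5 lower and 30 not called in the libraries labelled knockout, or 34.8% called against 23.0% of all genes. All 5 lower calls were absent when library totals alone set the scale, where 13 of the list were higher. The proteases that cleave binding proteins and their inhibitors had 4 higher and 0 lower of 8 tested, and 4 were not called (over all genes 23.0% were called, 12.0% as higher). *Adam12*, the gene of a metalloproteinase that cleaves IGFBP3 and IGFBP5, ran from 5.81 over a median of 14.4 to 22.3 CPM in control and from 17.4 over 51.8 to 112 CPM in the libraries labelled knockout, of which 9 lay above every control library (log2 fold change 2.01, SE 0.39, edgeR adjusted p = 0.00202). *Htra1*, a secreted serine protease, ran from 50.99 over 142 to 207 CPM and from 169 over 344 to 571 CPM, with 11 of 12 libraries labelled knockout above every control (1.22, SE 0.22, edgeR adjusted p = 0.00163). *Htra3*, its relative, had a mean of 63.1 ± 22.1 CPM (n = 8, SD) and 115 ± 25.6 CPM (n = 12, SD), a log2 fold change of 0.86. *Stc1*, an inhibitor of PAPP-A proteases, was low at 1.02 ± 0.614 and 2.09 ± 1.29 CPM, and its log2 fold change of 1.03 held (edgeR adjusted p = 0.0495) in only 7 of 20 fits that left out 1 library. *Pappa* and *Pappa2*, the pappalysins, had means of 1.91 and 2.38 CPM in control and 2.46 and 3.02 CPM in the libraries labelled knockout and did not pass.

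Genes whose proteins carry an IGFBP-like amino-terminal domain had 4 higher and 1 lower of 8 tested, with 3 not called (62.5% called against 23.0% of all genes). The highest fold change was that of *Ccn5* (annotated as *Wisp2*), a matricellular protein, which ran from 4.82 over a median of 7.95 to 27.8 CPM in control and from 6.73 over 67.0 to 153 CPM in the libraries labelled knockout (log2 fold change 2.49, SE 0.49, edgeR adjusted p = 0.00233). In 9 of 12 libraries labelled knockout it exceeded every control. *Kazald1*, a bone-expressed binding protein-like gene, rose by 1.34 on the log2 scale, *Ccn4* (annotated as *Wisp1*), a Wnt-induced matricellular protein, by 1.09 and *Ccn1* (annotated as *Cyr61*), its growth factor-inducible relative, by 1.01 (edgeR adjusted p = 0.00659, 0.0304 and 0.00756). The *Ccn4* call was lost without control replicate 6, 7 or 8. *Crim1*, a transmembrane regulator of BMPs, had a log2 fold change of −0.40, a lower call lost without control replicate 8.

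Downstream of the receptors, calls went both ways. Of 5 adaptors tested, *Shc1* was higher, from 56.5 ± 12.8 CPM (n = 8, SD) to 83.4 ± 15.5 CPM (n = 12, SD), a fitted log2 fold change of 0.56 (edgeR adjusted p = 0.00669, SE 0.14), as was *Grb10*, while *Grb14* was lower, and the receptor substrate genes *Irs1* and *Irs2* did not pass. Of 20 PI3K, AKT, mTOR and FOXO genes, 1 was higher (*Pik3r2*), 2 lower (*Akt2* and *Tsc1*) and 17 not called, a share of 15.0% called against 23.0% of all genes. The *Akt2* call held in 4 of 20 fits that left out 1 library. *Ghr*, the growth hormone receptor, was lower, from 115 ± 25.2 CPM (n = 8, SD) to 82.7 ± 15.3 CPM (n = 12, SD), with a fitted log2 fold change of −0.47 (edgeR adjusted p = 0.0119, SE 0.13). All 12 libraries labelled knockout lay below the control median and 7 lay below every control library. The *Ghr* call held in 7 of 14 other settings. The 8 genes of the skeletal muscle list summed to 36139 to 154420 CPM in control and 27811 to 73849 CPM in the libraries labelled knockout, with 3 called lower. The score of that list did not pass (exact permutation p = 0.0638, adjusted over 13 lists 0.104). With that list as a covariate, 4 pathway genes were called higher and 0 lower, in an edgeR fit that called 1500 genes in place of 3673. Lower pathway calls were also 0 with the osteoblast and osteocyte list, with the fibroblast and tendon list and with the replicate block. The lower *Ghr* call was thus absent in each of these fits, and whether muscle content had a part in it was not tested. The insulin receptor gene *Insr* (log2 difference −0.29, edgeR adjusted p = 0.0523) and the acid-labile subunit gene *Igfals* did not pass.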

How the data were processed

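The authors deposited raw counts for each Ensembl gene, obtained from paired-end NovaSeq 6000 reads that were trimmed by the sequencing company, mapped to mouse mm10 and counted with featureCounts 1.5.0-p3. Which aligner and annotation release were used, whether strand was counted and how reads with several positions were treated is not given in the sources used here, so reads of overlapping or antisense genes are uncertain. Titles gave the groups of the 20 libraries, 1 sample each, and nothing in the labels relates samples further, so p-values measure the spread between samples. Of 54532 genes, 54495 matched GENCODE M21 (GRCm38, 1-based coordinates) by identifier. No 2 libraries were alike (smallest chi-square per degree of freedom 32.9 over 190 pairs).

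Genes were kept by filterByExpr (15984) and scaled by TMM, and the libraries labelled knockout were compared with control by the two-sided quasi-likelihood test of edgeR 4.0.16 in R 4.3.3, with Benjamini-Hochberg adjustment over all genes tested and a threshold of 0.05. The study's DESeq2 Wald test (version 1.42.0) was the alternative. CPM use TMM-scaled library sizes and log2 CPM a prior count of 2. Intervals are 95% intervals of the edgeR estimate. Library measures, *Loxl2* log2 CPM and marker scores (mean log2 CPM of a list) were tested by exact permutation (two-sided, 125970 assignments). In simulated counts where 200 of 15984 genes were shifted by 1.5 log2 units, 77.5% were recovered and 4.32% of calls were false. Floors of 3 counts cover counting error only.

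Named genes were all 10 IGF genes, *Loxl2*, the 10 called genes of the pathway list with the largest absolute change, and the 2 most similar genes of each IGF gene. *H19*, *Igfbp1*, *Crim1*, *Pappa*, *Pappa2*, *Insr*, *Igfals*, *Grb10*, *Grb14*, *Irs1*, *Irs2*, *Pik3r2*, *Akt2* and *Tsc1* were named from the same list after their values were seen. The genes and lists were chosen with earlier results of these data known. Alternatives changed the scaling, filter, test, dispersion, libraries, a replicate block, marker-list covariates and the gene length used per kb. Protein sequences were not used here.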

Additional observations from a re-analysis of the deposited data

Results flagged for a closer look

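*Kazald1*, a secreted protein with an IGFBP-like domain, had 25.3 CPM in control replicate 5, far above the other 7 control libraries when the gap was set against the range of the group (0.538 of the range, limit 0.526). Chance alone gives such a gap in about 1 of 20 groups, and the control group was examined in this way for the 10 IGF genes, the 10 named pathway genes, *Loxl2* and 2 library measures.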

How the results depend on the processing

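The counts of calls moved by over 1.5 times with the cell type covariates and with the replicate block. Over all genes 3673 were called, which became 474 with the osteoblast and osteocyte list, 1500 with the skeletal muscle list and 0 with the osteoclast list (1299 at an unadjusted p under 0.05) as edgeR covariate, and 1593 with the fibroblast and tendon list and 0 with the macrophage list (840 at an unadjusted p under 0.05), the last 2 lists being chosen after seeing the data. The IGF genes called (4 of 10) became 1, 2, 0, 2 and 0 in the same order, and the pathway genes (16 of 46) 3, 4, 0, 11 and 0. The replicate numbers did not pair the libraries: of 8 pairs, 2 had a correlation of deviations over 0.1 (range −0.36 to 0.17) and 0 libraries correlated best with their own number. With the number as a block in the 16 libraries whose number occurs in both groups, 1786 genes, 2 IGF genes (*Igf1* and *Igfbp4*) and 6 pathway genes were called, against 3280, 3 and 15 in the same libraries without the block. Leaving out 1 library gave 2551 to 4181 genes, 3 to 5 IGF genes and 12 to 19 pathway genes. Signs turned with the macrophage list for *Igf1* (−0.27), *Igfbp4* (−0.43), *Igfbp5* (−0.28), *Igfbp6* (−0.44) and *Loxl2* (−0.19), with the fibroblast and tendon list for *Igfbp5* (−0.068) and *Igfbp6* (−0.31), with the osteoclast list (−0.26) and the osteoblast and osteocyte list (−0.087) for *Igfbp5*, with library totals alone for *Igf1r* (0.020) and, leaving out 1 library, for *Igfbp5* (−0.026 to 0.118). The cause was not tested. *Igfbp3* also did not pass with library totals alone (edgeR adjusted p = 0.0874) or without a filter (0.0630). Of the IGF log2 fold changes leaving out 1 library, 172 kept direction and side of the threshold, 17 lost a call, 8 gained one and 3 turned sign. Under other settings 103 kept both, 22 lost a call, 6 gained one and 9 turned sign. Those that kept both include genes that were never called, such as *Igf1r*. *Igf2* (4 to 113 counts) and *Igfbp2* (2 to 294 counts) had the lowest counts of the 10 genes, where depth limits the precision.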
